A study of Mus musculus with 7 samples.

Results

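Blood drawn repeatedly from a mouse can be taken from the facial vein (FV), the retroorbital plexus (RP, a venous network behind the eye) or the tail vein (TV). PBMCs (peripheral blood mononuclear cells, a fraction of lymphocytes and monocytes) of the group bled from the facial vein under ibuprofen, FV Ibu (+), were compared with those of the other routes under the same drug, RP Ibu (+) and TV Ibu (+). These are 3 of the 7 libraries of the series, which also holds an uncollected control (Non) and the same routes without the drug, FV Ibu (-), RP Ibu (-) and TV Ibu (-). All libraries were made from total RNA of mouse PBMCs at week 8 of collection, and all groups here share the drug. The sources used here do not give strain, age or sex of the mice, the dose of ibuprofen, or whether animals were pooled. With 1 library per group, a difference between libraries had no replicate check and was not tested, and it may belong to the animal, the preparation or the library as well as to the route. A gene was called when its read count, scaled by TMM (trimmed mean of M values) and taken as log2 CPM (reads of a gene per library of equal scaled size) with a prior count of 2, lay at least 2-fold on the same side of both comparators. It also needed a mean of at least 10 CPM over the 3 libraries. Of 45777 genes, 6153 passed that filter.

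Ibuprofen blocks the cyclooxygenases encoded by Ptgs1 and Ptgs2, which make the precursor of prostaglandins and of the platelet agonist thromboxane. Classical monocytes and neutrophils are myeloid cells that leave the marrow and enter damaged tissue, guided in monocytes by the chemokine receptor Ccr2. Platelets are anucleate fragments of megakaryocytes, carry megakaryocyte transcripts, and stick to monocytes and neutrophils once activated. PBMC preparations hold varying numbers of platelets, red cells and neutrophils beside the mononuclear cells.

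Against both other routes, FV Ibu (+) held 170 genes at a higher level and 28 at a lower level. Genes of platelets, classical monocytes and neutrophils stood among the higher ones, with 28, 17 and 8 called members of each list, and red cell genes among the lower ones, with 8. The background was 2.76% of genes called higher against both and 0.455% called lower. Against RP Ibu (+) alone, 476 genes (7.74%) were higher and 60 (0.975%) lower, and against TV Ibu (+) alone 187 (3.04%) were higher and 78 (1.27%) lower. Both folds share the FV Ibu (+) library. Between the comparators, 11 genes (0.179%) were at least 2-fold higher in RP Ibu (+) than in TV Ibu (+) and 68 (1.11%) were lower. The median log2 fold of all genes was 0.02 over RP Ibu (+) and 0.04 over TV Ibu (+). The balance of calls depended on the scale. With TMM, 85.9% of called genes were higher, and on the deposited TPM scale, with a prior of 0.5 TPM and the same 6153 genes, 99.8% were, with 1280 higher and 2 lower. All 170 genes called higher were among the 1280, and 2 of the 28 called lower kept their call. The median of all genes moved up there by 0.59 over RP Ibu (+) and 0.81 over TV Ibu (+), which favours higher calls. Folds are therefore given relative to TMM. Of the 170, 145 kept their call with DESeq2's size factors, 150 with the erythroid list left out before TMM and 164 with a prior count of 10. Of the 28 called lower, 28, 20 and 28 did, where the 20 leaves erythroid genes out. With a filter of 10 TPM in place of 10 CPM, 2510 genes were kept, with 756 higher and 2 lower (99.7% higher).

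**Figure D1:**
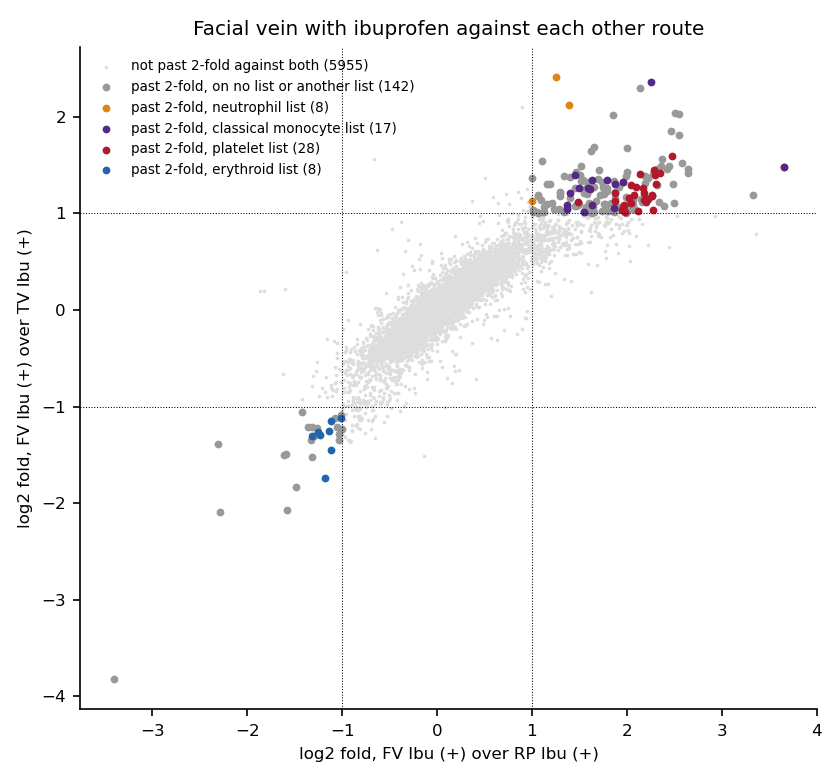
Log2 fold of FV Ibu (+) over RP Ibu (+) (horizontal axis) and over TV Ibu (+) (vertical axis) for 6153 genes, 1 point per gene, with the 2-fold limits dotted. The 170 genes called higher lie at the upper right and the 28 called lower at the lower left, and both axes share the FV Ibu (+) library.

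The 3 libraries held 49711482 reads in genes for FV Ibu (+), 51206457 for RP Ibu (+) and 52925162 for TV Ibu (+), within the range of 47903611 to 63801032 over the series. TMM factors were 1.31, 0.995 and 0.859. Adult globin genes took 46.3% of reads in FV Ibu (+), 62.4% in RP Ibu (+) and 64.6% in TV Ibu (+), so the facial vein library had the fewest red cell reads. Markers of the labelled cells were present in every library, with CPM in FV Ibu (+), RP Ibu (+) and TV Ibu (+) of 655, 686 and 595 for the leukocyte marker Ptprc. The mitochondrial rRNA share of reads outside the erythroid list was 2.07%, 1.06% and 1.67%. Whether globin or rRNA share had a part in the folds was not tested. In bulk RNA, fewer cells of a type and less RNA per cell cannot be told apart.

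The platelet list gave the most called genes. Of its 89 genes, 72 passed the filter. Their median log2 fold was 1.78 over RP Ibu (+) and 0.84 over TV Ibu (+), with 28 called higher and 0 lower. Summed over the list, platelet genes reached 20085 CPM in FV Ibu (+), 7008 in RP Ibu (+) and 11243 in TV Ibu (+). The order FV, TV, RP was also that of most single members.

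The sequences upstream of the 4 called platelet genes with the largest smaller fold are shown, since many platelet genes were called in 1 direction and their promoters are known to be read by GATA and ETS factors. Each is a RefSeq promoter of build GRCm38.p6 (the same assembly as mm10), running from 250 bases before to 50 after the start listed in that table. For Gp9 the listed start lies inside the gene's annotated span (chromosome 6, 87776131 to 87779786), and for the others at its 5′ end. It is written 5′ to 3′ on the gene's strand, with GATAA (GATA) and GGAAG (ETS) or their reverse complements in capitals. The windows are chr17:48359666-48359965 (+ strand) for Treml1, chr5:90768268-90768567 (+) for Ppbp, chr6:87777820-87778119 (+) for Gp9 and chr16:30310732-30311031 (- strand) for Gp5.
Treml1: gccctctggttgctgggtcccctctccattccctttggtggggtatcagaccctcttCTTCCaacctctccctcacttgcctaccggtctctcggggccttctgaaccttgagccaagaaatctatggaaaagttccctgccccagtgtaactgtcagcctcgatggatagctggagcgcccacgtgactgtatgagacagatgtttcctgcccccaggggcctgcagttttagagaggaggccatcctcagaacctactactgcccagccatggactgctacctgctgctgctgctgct
Ppbp: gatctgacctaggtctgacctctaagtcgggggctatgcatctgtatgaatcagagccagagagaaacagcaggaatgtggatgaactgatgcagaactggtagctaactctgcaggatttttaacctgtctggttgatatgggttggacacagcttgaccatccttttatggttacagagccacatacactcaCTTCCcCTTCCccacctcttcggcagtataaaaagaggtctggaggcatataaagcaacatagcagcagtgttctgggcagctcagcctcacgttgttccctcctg
Gp9: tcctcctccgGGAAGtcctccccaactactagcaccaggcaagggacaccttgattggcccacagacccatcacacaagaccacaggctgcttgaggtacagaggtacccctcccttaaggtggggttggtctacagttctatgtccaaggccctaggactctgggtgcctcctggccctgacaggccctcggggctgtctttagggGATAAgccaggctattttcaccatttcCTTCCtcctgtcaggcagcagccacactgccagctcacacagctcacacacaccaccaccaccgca
Gp5: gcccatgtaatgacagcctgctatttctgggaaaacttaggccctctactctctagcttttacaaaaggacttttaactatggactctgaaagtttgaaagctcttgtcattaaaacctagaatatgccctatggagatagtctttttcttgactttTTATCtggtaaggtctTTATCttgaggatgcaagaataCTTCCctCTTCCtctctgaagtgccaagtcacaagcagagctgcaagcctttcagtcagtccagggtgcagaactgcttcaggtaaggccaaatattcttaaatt
The Treml1 window held 0 GATAA and 1 GGAAG, that of Ppbp 0 and 2, that of Gp9 1 and 2, and that of Gp5 2 of each. Both strands were searched, and matches were allowed to overlap.

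Promoters were listed for 23 of the 28 called platelet genes. GATAA was in 11 of them (47.8%) and GGAAG in 21 (91.3%), and 10 (43.5%) held both. Over the 4884 promoters of genes that passed the filter, the shares were 15.4%, 77.7% and 11.9%, and over all 27025 listed promoters 25.8%, 71.1% and 17.4%. Among the 14 listed promoters of called classical monocyte genes, GATAA stood in 35.7% and GGAAG in 78.6%. In the 137 listed promoters of all genes called higher the shares were 26.3% and 78.1%, and of the 20 listed for genes called lower, 7 and 10 held them. These are counts of letters in a short window and were not tested.

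Surface receptors of platelet adhesion had the most called members. Of 13 measured, 10 were called, with a median log2 fold of 2.05 over RP Ibu (+) and 1.14 over TV Ibu (+). Gp9, a subunit of the receptor for von Willebrand factor, was at 132 CPM in FV Ibu (+), 25.9 in RP Ibu (+) and 49.6 in TV Ibu (+). Its log2 fold was 2.35 over RP Ibu (+) and 1.42 over TV Ibu (+), with exact 95% intervals of 2.27 to 2.44 and 1.35 to 1.49. These intervals, from the counts of 2 libraries, cover counting error only. Gp5, its partner, was at 110, 24.9 and 41.2 CPM in the same order, and Itga2b, a subunit of the fibrinogen receptor, at 821, 209 and 387. In all 3 genes RP Ibu (+) was below TV Ibu (+), while the rule fixes FV Ibu (+) as the high library.

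Agonist receptors had 4 of 5 measured genes called. P2ry12, the ADP receptor that anti-platelet drugs block, was at 347 CPM in FV Ibu (+), 71.9 in RP Ibu (+) and 154 in TV Ibu (+), a log2 fold of 2.27 and 1.17. Granule proteins had 6 of 13 called. The platelet chemokines Ppbp and Pf4 lie side by side on chromosome 5 (90768518 to 90770063 and 90772435 to 90773383). Ppbp stood at 993, 204 and 364 CPM and Pf4 at 546, 121 and 228, with log2 folds over TV Ibu (+) of 1.45 and 1.26. Vwf, which tethers platelets to damaged vessel wall, was at 404, 93.1 and 199 CPM. Its log2 fold over TV Ibu (+) was 1.02, near the limit.

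Members with roles inside the cell followed. Signalling genes had 4 of 16 called and cytoskeletal genes 4 of 17, with medians over TV Ibu (+) of 0.68 and 0.64, and the megakaryocyte transcription factors had 0 of 8, with 0.61 over RP Ibu (+) and 0.24 over TV Ibu (+). Treml1, the TLT-1 receptor kept in platelet granules (chromosome 17, 48359916 to 48367176), was listed with the signalling genes and had their largest folds, 2.47 over RP Ibu (+) and 1.59 over TV Ibu (+). It stood at 52.4, 9.40 and 17.4 CPM in FV Ibu (+), RP Ibu (+) and TV Ibu (+). Nrgn, a calmodulin-binding protein, was at 1406 CPM in FV Ibu (+), 364 in RP Ibu (+) and 808 in TV Ibu (+), and was not called because its log2 fold over TV Ibu (+) was 0.80. Flna, the actin crosslinker filamin A, which leukocytes also express, was at 852, 587 and 652 CPM. Thbs1, the granule protein thrombospondin, differed by 1.62 over RP Ibu (+) but by 0.18 over TV Ibu (+). Ctla2a, among the most abundant members, has a near copy in Ctla2b, and its value is uncertain. The lowest member in both comparisons was Zfpm1, the GATA cofactor FOG1, at -0.43 and -0.76.

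The serotonin transporter Slc6a4, which loads platelets with serotonin, was at 155 CPM in FV Ibu (+), 30.0 in RP Ibu (+) and 55.1 in TV Ibu (+). F11r, a junctional adhesion molecule on platelets, was at 20.03, 3.65 and 7.11 CPM. Maged2, a MAGE family member, stood at 28.2, 5.42 and 9.57 CPM, and the membrane protein gene Tmem40 at 62.8, 10.5 and 21.8. In all 4 genes RP Ibu (+) was again below TV Ibu (+), and the rule fixes FV Ibu (+) above both.

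**Figure D2:**
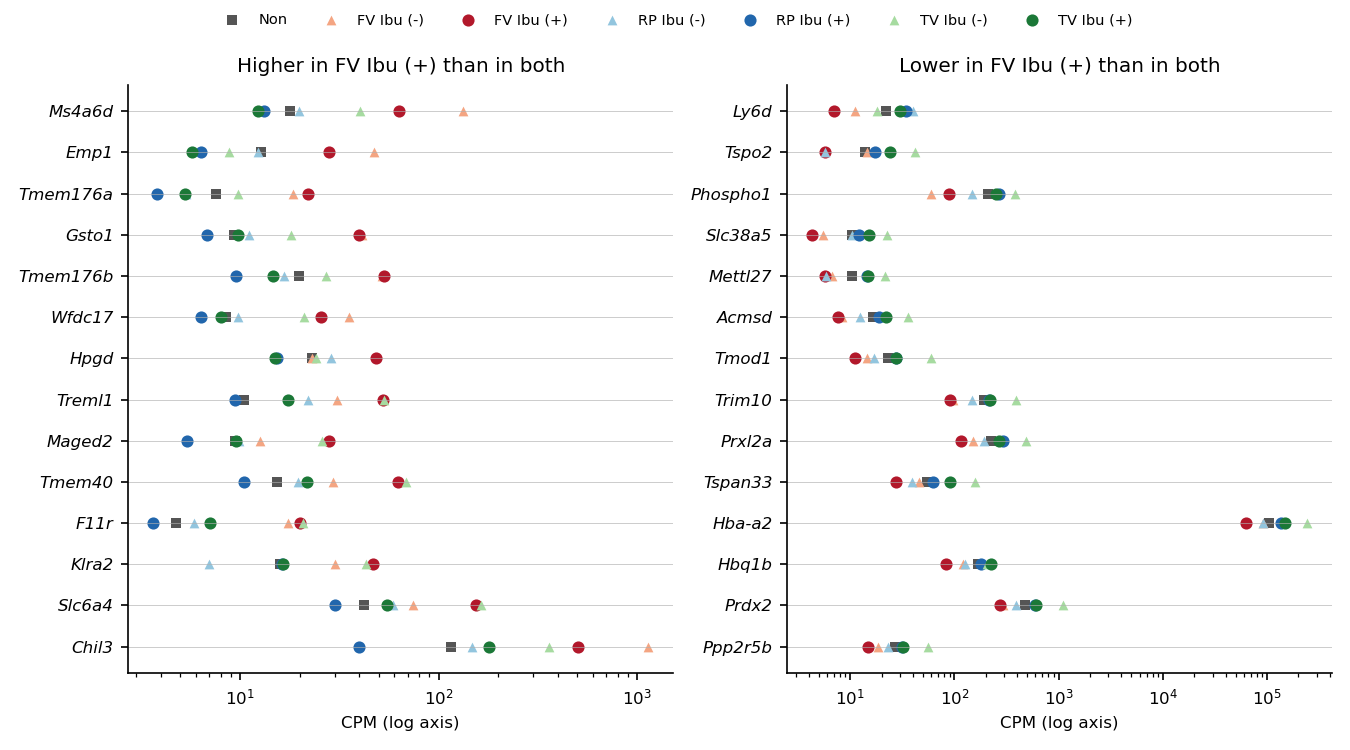
CPM on a log axis in all 7 libraries for 14 named genes called higher (left) and 14 called lower (right), 1 mark per library. FV Ibu (+) lies above both RP Ibu (+) and TV Ibu (+) in every gene on the left and below both in every gene on the right, which the rule fixes, while FV Ibu (-) and TV Ibu (-) lie at varying places.

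Classical monocyte genes were the next group higher over both comparators. Of 42 genes that passed the filter of 48 in the table, 17 were called higher, and the median log2 fold was 1.30 over RP Ibu (+) and 0.95 over TV Ibu (+). Their summed level was 9919 CPM in FV Ibu (+), 3824 in RP Ibu (+) and 5392 in TV Ibu (+). Secreted and lysosomal products had 11 of 21 measured genes called, and receptors and surface proteins 6 of 21.

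Ms4a6d, a four-pass membrane protein of monocytes and macrophages (chromosome 19, 11586606 to 11604804), had the largest smaller fold of all genes called higher. It stood at 63.4 CPM in FV Ibu (+), 13.2 in RP Ibu (+) and 12.4 in TV Ibu (+), from 4145, 674 and 562 reads. Its log2 fold was 2.26 over RP Ibu (+) (interval 2.14 to 2.38) and 2.36 over TV Ibu (+) (2.23 to 2.49), so the comparators were alike. That FV Ibu (+) lay above both is fixed by the rule. The Ms4a genes are a family of related sequences, and how reads shared by them were counted is not known here. Chil3, the secreted chitinase-like protein Ym1 (chromosome 3, 106147554 to 106167564), was at 502 CPM in FV Ibu (+), 39.9 in RP Ibu (+) and 180 in TV Ibu (+). It has a close copy in Chil4. Its fold of 3.65 over RP Ibu (+) and 1.48 over TV Ibu (+) placed the comparators far apart, and it was among the 5 genes with the largest fold toward TV Ibu (+) between them, at -2.18 for RP Ibu (+) over TV Ibu (+).

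Ccr2, the receptor that draws classical monocytes out of the marrow, was at 494 CPM in FV Ibu (+), 135 in RP Ibu (+) and 200 in TV Ibu (+). Lyz2, lysozyme of myeloid cells and on the neutrophil list as well, was at 2853, 922 and 1348 CPM. F13a1, the coagulation factor subunit found in monocytes and platelets, stood at 450, 115 and 216 CPM, and counts in both lists. Psap, a lysosomal protein precursor, was at 1284, 611 and 780 CPM, with log2 folds of 1.07 and 0.72, and was not called. Csf1r, the receptor for the monocyte growth factor M-CSF, was at 354, 173 and 199 CPM (1.04 and 0.83), also not called. Ly6c2, which marks classical monocytes in mouse blood, was at 27.9, 25.03 and 47.2 CPM, and so did not follow the rest of its list. Of the nonclassical monocyte list, 20 genes passed the filter and 0 were called. The share of all genes called higher was 2.76%, at which 20 genes would hold few or no calls. Its highest member over both comparators was Cx3cr1, at 1.19 and 0.81. The medians of that list were 0.10 and 0.24, beside 0.02 and 0.04 for all genes.

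Several genes outside the list had folds as large. Gsto1, a glutathione transferase, stood at 39.9 CPM in FV Ibu (+), 6.79 in RP Ibu (+) and 9.77 in TV Ibu (+). Wfdc17, a small secreted protein of macrophages, was at 25.7, 6.40 and 8.01 CPM. Klra2, a Ly49 family receptor, was at 46.5, 16.2 and 16.5 CPM, and Emp1, an epithelial membrane protein (chromosome 6, 135362550 to 135383173), at 28.3, 6.38 and 5.74. Tmem176a and Tmem176b overlap on chromosome 6 (48841483 to 48845364 and 48833811 to 48845948). With the use of strand not given, their reads cannot be fully told apart. They were at 21.9 and 53.2 CPM in FV Ibu (+), against 3.83 and 9.56 in RP Ibu (+) and 5.32 and 14.7 in TV Ibu (+).

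Many neutrophil genes were higher as well, but not all. Of 50 genes in the table, 25 passed the filter and 8 were called higher, and 4 of those 8 are on the monocyte list too. The medians were 0.91 over RP Ibu (+) and 0.90 over TV Ibu (+), and the summed level 5288 CPM in FV Ibu (+), 2236 in RP Ibu (+) and 2628 in TV Ibu (+). S100a8, a subunit of calprotectin, was at 65.9 CPM in FV Ibu (+), 27.6 in RP Ibu (+) and 12.4 in TV Ibu (+), so here TV Ibu (+) was the low library. Mmp8, the neutrophil collagenase, was at 51.9, 13.3 and 20.7 CPM. Cybb, a subunit of the NADPH oxidase, was at 384, 175 and 204 CPM, and was not called. Over RP Ibu (+), 18 of the 25 genes were above 0, and over TV Ibu (+) 24, where the shares of all genes were 52.2% and 54.7%. Among those below RP Ibu (+) were the gelatinase gene Mmp9, at 20.96, 32.6 and 13.6 CPM, the cytokine gene Il1b, at 52.2, 72.5 and 29.3, and the chemokine receptor gene Cxcr2, at 29.7, 38.6 and 15.7. In these 3 genes RP Ibu (+) was the high library and TV Ibu (+) the low one.

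The genes that make, clear and sense prostanoids are those nearest to the drug. Of 22 such genes, 6 passed the filter, with medians of 1.15 over RP Ibu (+) and 0.58 over TV Ibu (+), and 2 were called higher. Of 14 lipoxygenase and leukotriene genes on the same list, 3 passed and 1 was called. Ptgs1, which encodes cyclooxygenase-1 (chromosome 2, 36216742 to 36258593), was at 48.8 CPM in FV Ibu (+), 11.96 in RP Ibu (+) and 30.7 in TV Ibu (+). Its log2 fold was 2.02 over RP Ibu (+) and 0.67 over TV Ibu (+), and it was not called. Ptgs2, the inducible cyclooxygenase-2, did not pass the filter, at 1.25, 4.75 and 1.17 CPM. RP Ibu (+) was thus its high library, and FV Ibu (+) and TV Ibu (+) lay close together.

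Hpgd, the dehydrogenase that inactivates prostaglandins (chromosome 8, 56294552 to 56321046), was at 48.4 CPM in FV Ibu (+), 15.4 in RP Ibu (+) and 15.02 in TV Ibu (+), a log2 fold of 1.65 and 1.69. Its level was 23.1 CPM in Non, 23.0 in FV Ibu (-), 28.7 in RP Ibu (-) and 24.2 in TV Ibu (-), so FV Ibu (+) was the single high library of all 7. Tbxas1, thromboxane synthase, was at 29.4, 7.95 and 12.7 CPM in FV Ibu (+), RP Ibu (+) and TV Ibu (+). Alox5ap, the helper protein of leukotriene synthesis, was at 185, 60.5 and 88.7 CPM. Alox12, the platelet 12-lipoxygenase, was at 274, 62.5 and 143 CPM and missed the limit over TV Ibu (+), at 0.94. Ptges3 was level at 36.2, 37.1 and 34.3 CPM.

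**Figure D3:**
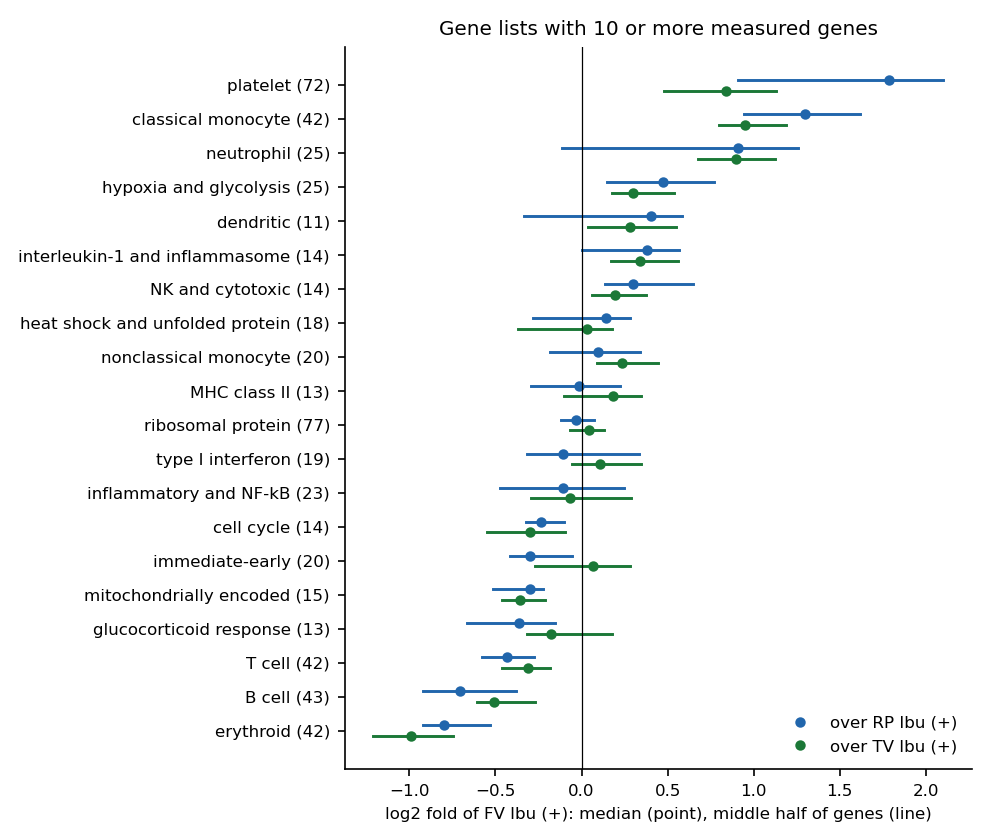
Median log2 fold of FV Ibu (+) over RP Ibu (+) (blue) and over TV Ibu (+) (green) for gene lists with at least 10 measured genes, with lines for the quartiles and the number of genes in brackets. Platelet (1.78 and 0.84), classical monocyte (1.30 and 0.95) and neutrophil (0.91 and 0.90) lists lie highest and the erythroid list (-0.80 and -0.99) lowest.

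Inflammatory and stress genes had medians on either side of 0. Over all genes, 2.76% were called higher and 0.455% lower, so lists of this size would hold few or no calls at that share. Of the inflammatory cytokine and NF-kB list, 23 genes passed the filter, 0 were called, and the medians were -0.11 and -0.07. Type I interferon genes had medians of -0.11 and 0.11 over 19 genes, with Ifit2 called higher, at 33.1 CPM in FV Ibu (+), 15.4 in RP Ibu (+) and 11.4 in TV Ibu (+). Members of that list ranged from -0.88 to 1.10 over RP Ibu (+) and from -1.16 to 1.54 over TV Ibu (+). The interleukin-1 and inflammasome list had medians of 0.38 and 0.34 over 14 genes, with Mefv, the pyrin gene, called. Immediate-early genes had -0.30 and 0.07, glucocorticoid response genes -0.36 and -0.17, and heat shock genes 0.14 and 0.03. Of 17 acute phase genes 1 passed the filter, haptoglobin (Hp), at 159, 52.0 and 66.9 CPM and called. Regulatory T cell genes gave Nrp1 as called among 3, at 28.7, 7.87 and 14.2 CPM. The log2 folds over RP Ibu (+) and TV Ibu (+) were 0.06 and 0.23 for Foxp3 and 0.40 and 0.35 for Capg. Ribosomal protein genes, with 77 measured, had medians of -0.03 and 0.04.

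Red cell genes were lower in FV Ibu (+) on the TMM scale. Of 42 measured erythroid genes 8 were called lower and 0 higher. The list medians were -0.80 over RP Ibu (+) and -0.99 over TV Ibu (+). Above 0 were 2 of the 42 over RP Ibu (+) and 4 over TV Ibu (+). The 2 over RP Ibu (+) were the transcription factor genes Tal1 and Nfe2, at 1.78 and 1.39. Prdx2, an abundant red cell peroxidase, was at 272 CPM in FV Ibu (+), 590 in RP Ibu (+) and 604 in TV Ibu (+), and Tmod1, which caps actin in the red cell skeleton, at 11.1, 27.8 and 27.6. Comparators lay close together in both genes. On the deposited TPM scale Prdx2 was at 232, 324 and 280 TPM in the same order. The beta globin gene Hbb-bs was at 226983, 235722 and 245531 TPM. Over the genes of the CPM filter, the 2 lower calls kept on that scale were outside the erythroid list. The median log2 fold of all genes was 0.61 over RP Ibu (+) and 0.85 over TV Ibu (+) there. The alpha globin gene Hba-a2 had log2 folds of -1.14 and -1.25 and is nearly identical to Hba-a1, so the split of reads between them is uncertain. Among called genes outside the list, the phosphatase gene Phospho1 was at 88.2, 269 and 250 CPM, the amino acid transporter Slc38a5 at 4.28, 12.1 and 15.3, and Tspo2, an erythroid relative of the translocator protein, at 5.72, 17.2 and 24.1.

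Ly6d, a surface marker of early B lineage cells (chromosome 15, 74762056 to 74763567), had the largest smaller fold of the named genes called lower. It was at 7.02 CPM in FV Ibu (+), 34.3 in RP Ibu (+) and 30.0 in TV Ibu (+), a log2 fold of -2.28 and -2.09. It was the 1 called gene of the B cell list, whose 43 measured members had medians of -0.70 and -0.51. Ly6d is also among the plasmacytoid dendritic cell genes, whose 7 measured members had medians of 0.23 and 0.18. Cd79a, part of the B cell receptor, was at 93.3, 196 and 157 CPM, and Ighm, the IgM heavy chain, at 329, 566 and 479. Igkc, the kappa light chain, was at 242, 265 and 300 CPM. The T cell list had medians of -0.43 and -0.31 over 42 genes with 0 called, where 0.455% of all genes were called lower. Tcf7, a factor of naive T cells, stood at 156, 244 and 221 CPM. On the TPM scale the B cell median over TV Ibu (+) was 0.36 over the same genes, where the median of all genes was 0.85, so the list lay below all genes on both scales.

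Tissue at a puncture site can enter blood. Of the skin list and the muscle list 0 genes passed the filter, and of the list for glands of the face and eye 1. The summed level over 27 skin genes was 6.49 CPM in FV Ibu (+), 8.03 in RP Ibu (+) and 5.43 in TV Ibu (+). Over 18 muscle genes it was 5.58, 3.28 and 4.58 CPM, and over 29 gland genes 28.1, 23.0 and 20.9. Most of the gland sum was Slc12a2, an ion cotransporter gene that is also on the nonclassical monocyte list. Without it, the other 28 gland genes summed to 6.21 CPM in FV Ibu (+), 2.30 in RP Ibu (+) and 2.07 in TV Ibu (+), and to 7.95 in FV Ibu (-). Both facial vein libraries were thus above the others, and 16 of the 28 genes had 0 reads in all 3 libraries with ibuprofen. Aqp5, a water channel of salivary and tear glands, named after its values were seen, had 31 reads in FV Ibu (+) and 0 in both comparators. The part of such tissue in the folds was not tested.

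The called genes were next read in the libraries without ibuprofen, which the rule did not use. Over RP, most called genes lay on the same side in FV Ibu (-), and over TV the called platelet genes lay mostly on the other side. Of the 170 genes called higher, 164 were higher in FV Ibu (-) than in RP Ibu (-) and 69 by at least 2-fold. The share of all genes at least 2-fold higher there was 4.16%. Against TV Ibu (-), 69 were higher and 101 lower, with 11 at least 2-fold higher where the share of all genes was 0.666%, and 30 at least 2-fold lower where it was 5.07%. The median log2 folds of the 170 were 0.83 over RP Ibu (-) and -0.48 over TV Ibu (-).

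By list, the 28 called platelet genes had medians of 0.82 over RP Ibu (-) and -0.86 over TV Ibu (-), and 27 of them were lower in FV Ibu (-) than in TV Ibu (-). Itga2b stood at 616 CPM in FV Ibu (-), 305 in RP Ibu (-) and 1130.1 in TV Ibu (-), against 269 in Non. TV Ibu (-) was the highest of the 7 libraries for 22 of the 28, FV Ibu (+) for 5 and FV Ibu (-) for 1. These levels are relative to TMM, with a factor of 1.17 for FV Ibu (-) and 0.553 for TV Ibu (-). The 17 called monocyte genes had medians of 1.77 over RP Ibu (-) and 0.57 over TV Ibu (-), and 13 were highest in FV Ibu (-) and 4 in FV Ibu (+). Ms4a6d stood at 133 CPM in FV Ibu (-), 19.8 in RP Ibu (-), 40.4 in TV Ibu (-) and 17.9 in Non, and Chil3 at 1140.1, 148, 359 and 115. For the 8 called neutrophil genes the medians were 2.53 and 1.28, with 7 highest in FV Ibu (-). S100a8 was at 241 CPM in FV Ibu (-), above its 65.9 in FV Ibu (+), with 18.8 in RP Ibu (-) and 49.4 in TV Ibu (-).

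**Figure D4:**
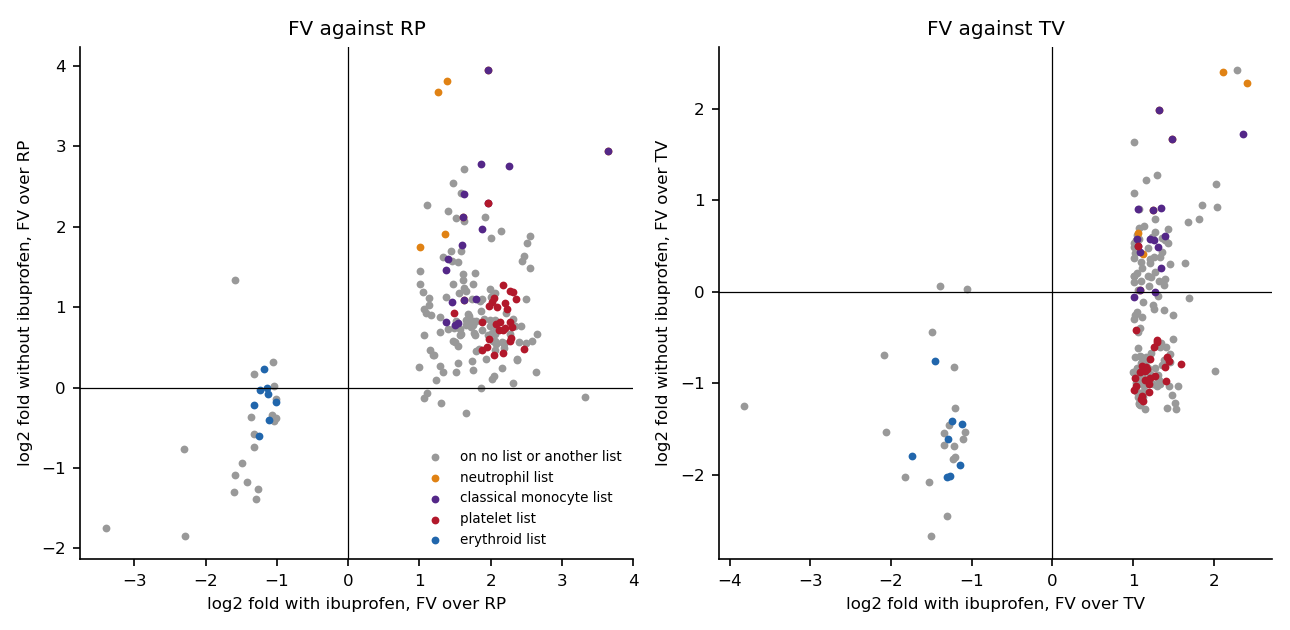
For the 198 called genes, the log2 fold of FV over RP (left) and over TV (right) with ibuprofen (horizontal axis) and without it (vertical axis), 1 point per gene. Platelet genes lie above 0 on the vertical axis against RP but mostly below 0 against TV, with medians of 0.82 and -0.86, while neutrophil genes lie above 0 in both.

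The levels against the uncollected control are a description, since the rule fixes the differences among the 3 libraries with ibuprofen. The 170 had a median log2 fold over Non of 1.47 in FV Ibu (+), -0.40 in RP Ibu (+) and 0.15 in TV Ibu (+). For the platelet members it was 1.76, -0.36 and 0.54, and for the monocyte members 1.07, -0.50 and -0.11. RP Ibu (+) was the lowest of all 7 libraries for 140 of the 170. The 8 called erythroid genes had medians over Non of -0.98, 0.27 and 0.38, and FV Ibu (+) was the lowest library for all 8. For 7 of those 8, TV Ibu (-) was the highest. Of the 28 genes called lower, 7 were at least 2-fold lower in FV Ibu (-) than in RP Ibu (-) and 22 than in TV Ibu (-), where the shares of all genes were 2.03% and 5.07%.

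**Figure D5:**
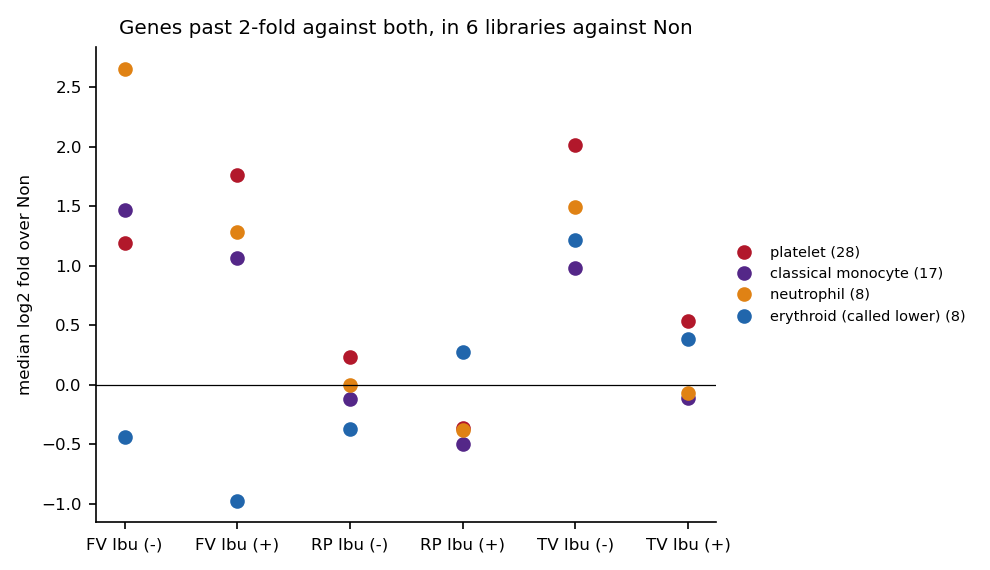
Median log2 fold over Non of the called genes of 4 lists in each of the 6 collected libraries, 1 point per list and library. Platelet genes are high in TV Ibu (-) and FV Ibu (+), at 2.02 and 1.76, neutrophil genes in FV Ibu (-), at 2.66, and called erythroid genes are lowest in FV Ibu (+), at -0.98.

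The test that keeps each labelled group apart used the 6 collected libraries, as FV against the mean of RP and TV with ibuprofen as an additive term, and it averages over the drug. It includes the libraries that chose the called genes. By edgeR's quasi-likelihood test over 11809 genes, 15 genes (0.127%) rose and 1 (0.00847%) fell in FV at a Benjamini-Hochberg adjusted p under 0.05. At an unadjusted p under 0.05 there were 1532 and 796 of the 11809. Of the 170 genes called higher, 5 passed (Emp1, Ms4a6d, Gsto1, Chil3 and Ms4a4a), and of the 28 called lower 0 passed, with a smallest adjusted p of 0.0617 by edgeR. At an unadjusted p under 0.05 there were 92 of the 170 and 26 of the 28. Since 3 of the 6 libraries chose these genes, their counts here are no separate support for the calls. DESeq2 called 420 genes higher and 261 lower over all genes. With RP Ibu (+) and TV Ibu (+) taken as samples of 1 group, a fit to the 3 libraries with ibuprofen alone, with 1 residual degree of freedom, gave 46 genes (0.39%) higher and 13 (0.11%) lower of 11807 by edgeR. Of these, 29 and 8 were called genes, but that contrast is the one that chose them, so the count adds nothing to the calls.

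Emp1 rose in FV by 2.20 on the log2 scale (SE 0.135, edgeR adjusted p = 0.0228), with a mean of 37.9 CPM against 8.34. Saa3, an acute phase serum amyloid gene below the filter in the libraries with ibuprofen, rose by 5.80 (SE 0.406, edgeR adjusted p = 0.0228), from 4.78 to 134 CPM. Saa3 was at 256 CPM in FV Ibu (-) and 12.6 in FV Ibu (+), so the former carried that mean, with 0.157 in RP Ibu (+) and 0.858 in TV Ibu (+). Ms4a6d rose by 2.25 (SE 0.224) and Chil3 by 2.42 (SE 0.227), each at an edgeR adjusted p of 0.0449. Gsto1, Ms4a4a, Ms4a8a, Emilin1 and Shtn1 rose by 1.93, 1.57, 2.06, 1.23 and 1.72 at the same adjusted p by edgeR. The count of 15 was not stable: it was 670 without FV Ibu (-) and 156 without FV Ibu (+). It was 1 without RP Ibu (-), RP Ibu (+) or TV Ibu (-), and 2 without TV Ibu (+). With erythroid genes left out before scaling it was 72.

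Near the 2-fold limit, members just inside and outside differed little. Serpinb10, with log2 folds of 1.00 and 1.36, Clec4d with 1.00 and 1.12 and Diaph3 with 1.06 and 1.00 were just inside on the higher side. Ppt1 with 1.11 and 0.99 and Leprot with 1.28 and 0.99 were just outside. On the lower side Hagh (-1.01 and -1.24), Blvrb (-1.01 and -1.12) and Snx15 (-1.01 and -1.08) were inside and Dhrs11 (-0.99 and -1.29) outside. Of the 170 genes called higher 116 were on no list, and of the 28 called lower 18. On no list, the 116 had medians of 1.76 over RP Ibu (+) and 1.18 over TV Ibu (+), and 49 of them were highest in TV Ibu (-), 37 in FV Ibu (+) and 30 in FV Ibu (-).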

How the data were processed

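Per the labels' protocols, total RNA of mouse PBMCs was purified with an RNeasy kit and made into stranded mRNA libraries, 1 for each of 7 groups. The tools named, per the submitters' processing notes, are Trimmomatic 0.38 and HISAT2 2.1.0, with build mm10 and no role stated for either. Not given in the sources used here are the counting program, the annotation, whether strand was used and whether animals were pooled. The authors deposited 1 table of 45777 genes with raw read counts, FPKM and TPM for each library, per the file headers. The deposited counts were whole numbers, not normalized. The deposited TPM values, scaled by the authors for length and depth, served as an alternative scale, and the deposited FPKM values, per kilobase and depth by the authors, were not used.

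Counts were scaled by TMM over all 7 libraries and taken as log2 CPM with a prior count of 2. The filter was a mean of at least 10 CPM over the 3 libraries with ibuprofen, and the limit 2-fold. Intervals of the count ratio are exact conditional binomial (Clopper-Pearson) 95% intervals and cover counting error only. The floor, 3 counts, was worth 0.0383 to 0.0916 CPM. Compared pairwise by chi-square, the 3 libraries gave 38.6 to 363 per degree of freedom, so none repeats another. FV was tested against the mean of RP and TV in 6 libraries with edgeR's quasi-likelihood test (2 residual degrees of freedom, mean of at least 1 CPM, Benjamini-Hochberg over all genes). With 1 library per route and drug, the residual holds any change of the route differences with the drug, mixed with variation between libraries. Such p-values measure only that spread between these libraries. Only the median estimated folds were checked, on counts simulated with no ibuprofen effect, which does not check the p-values on these data. Of the genes, 45679 IDs were matched to GRCm38.p6. Versions were edgeR 4.0.16, DESeq2 1.42.0 and limma 3.58.1, run in R 4.3.3.

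The genes and the 30 lists (962 genes, 941 in the table) were chosen with earlier results of these data known. The text names the 15 called genes per direction with the largest smaller fold (the smaller of a gene's 2 folds), called list members, the 3 most abundant members of a described list, Ptgs1 and Ptgs2, the genes nearest the limit, the 5 most different between comparators, and genes that passed the test at a mean of at least 5 CPM. Predicted genes, clones, pseudogenes and receptor segments were left out, which skipped 10 called higher and 9 called lower genes. Thbs1, Csf1r, Ly6c2, Tbxas1, Alox12, Zfpm1 and Aqp5 were named after their values were seen. Some genes that the rule names are not reported here. Alternatives covered the scaling, filter, prior count, fold limit, test and each library left out.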

Additional observations from a re-analysis of the deposited data

Results flagged for a closer look

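Differences between FV and another route that had opposite signs with and without ibuprofen are listed here; each rests on 1 library per group, and the difference between the conditions was not tested. The platelet list had a median log2 fold of FV over TV of 0.84 with ibuprofen and -0.82 without it. Among the 170 genes called higher in FV Ibu (+), 101 were lower in FV Ibu (-) than in TV Ibu (-).

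Single named genes also changed sign. For FV over RP, Hpgd was at 1.65 with ibuprofen and -0.32 without it, Tspo2 at -1.58 and 1.34, Mettl27 at -1.32 and 0.17, and Tspan33 at -1.18 and 0.23. For FV over TV, Hpgd was at 1.69 and -0.07, and the platelet genes Treml1 at 1.59 and -0.79 and Slc6a4 at 1.49 and -1.13. In the same comparison Maged2 was at 1.56 and -1.03, Tmem40 at 1.52 and -1.22, F11r at 1.49 and -0.25, and Klra2 at 1.49 and -0.52. TV Ibu (-) was the highest library for 22 of the 28 called platelet genes and had the lowest TMM factor of the series, 0.553, and the largest share of adult globin reads, 70.9%. The factor of FV Ibu (-) was 1.17. Signs without ibuprofen are thus relative to TMM, and they were not read on the TPM scale.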

How the results depend on the processing

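The 30 named genes, chosen for their large folds, kept the direction of both under each scaling and prior tried. Counts of calls moved with the settings, given here in the order higher and lower over RP Ibu (+), higher and lower over TV Ibu (+), higher and lower than both, and RP Ibu (+) higher and lower than TV Ibu (+). A 1.5-fold limit gave 983, 441, 673, 301, 630, 215, 41 and 262 genes. A 3-fold limit gave 187, 9, 14, 5, 11, 2, 4 and 5. A filter of a mean of at least 1 CPM gave 1032, 255, 506, 206, 421, 95, 93 and 236, and no filter 3126, 1796, 2452, 1422, 1688, 554, 1792 and 1731. On the TPM scale with a filter of 10 TPM the first 6 were 782, 3, 1178, 3, 756 and 2, and 7 genes were lower in RP Ibu (+) than in TV Ibu (+). On that scale over the genes of the CPM filter, added after seeing the data, they were 1341, 5, 2107, 3, 1280, 2, 23 and 11. With the erythroid list left out before TMM, 131 genes were lower than RP Ibu (+) and 45 lower than both. There, 29 genes were higher and 126 lower in RP Ibu (+) than in TV Ibu (+), and 19 genes called lower were so against RP Ibu (-). Of lists with a median beyond 0.5 on both sides, 3 were higher and 2 lower; on the TPM scale 9 and 0 (12 and 0 over the genes of the CPM filter), without a filter 8 higher, and with the erythroid list left out 1 lower. The B cell median over TV Ibu (+) went from -0.51 to 0.35 on the TPM scale (0.36 over the genes of the CPM filter), where the median of all genes went from 0.04 to 0.97 (0.85), so the list stayed below all genes. TMM over the 3 libraries alone, added after seeing the data, gave 170 and 29.

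In the 6-library test, the 15 higher and 1 lower genes became 4 and 0 with DESeq2's size factors, 2 and 0 without a filter or with a filter at 5 CPM, and 1 and 0 with no ibuprofen term. They became 420 and 261 with DESeq2, 72 and 8 with the erythroid list left out, 25 higher with limma-voom, 24 higher with the legacy quasi-likelihood fit, and 46 and 13 in the 3 libraries with ibuprofen, with RP and TV as samples of 1 group. Leaving out 1 library gave 1 to 670 higher and 0 to 67 lower; the lone library of a route is then assumed to vary like the others. No paired analysis was possible because each group holds 1 library and the labels give no replicate numbers.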
